A study of Danio rerio with 24 samples.

Results

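The 12 livers described here came from the female zebrafish of a study of swim training and overfeeding, out of 24 livers in all. They were selected on the label for sex and then ordered by their vitellogenin output, which is the share of all RNA-seq counts of a liver that fell on the 8 vitellogenin genes vtg1 to vtg8. The question was which of the other liver genes followed this share from fish to fish. The share itself was measured in the same libraries, so it orders the fish and was not tested as a finding against them.

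All fish were ABTL zebrafish, described as adults, and each of the 4 groups held 3 females and 3 males. The OF-training and NF-training groups swam in a tunnel for 8 weeks in 20 sessions, whereas the OF-control and NF-control groups did not train. The OF-training and OF-control groups were overfed, receiving 9 mL of live shrimp for each fish, and the NF-training and NF-control groups were fed normally. Each library is a whole liver of a single fish, flash frozen after an overnight fast. The fish were housed 6 to a tank, and the tank of each fish is not in the labels, so group and tank cannot be told apart. Replicate numbers stand for separate fish.

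Vitellogenins are the precursors of egg yolk. In egg-laying vertebrates estradiol from the ovary enters the hepatocyte, binds the estrogen receptor and switches on the vitellogenin genes. The protein is translated on the endoplasmic reticulum (ER), loaded with lipid, glycosylated and secreted into the blood, from which the growing oocyte takes it up. A laying female therefore turns much of its liver over to a single export product, and the output changes with the reproductive cycle.

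The vitellogenin share had its lowest value, 29.3%, in NF-training replicate 3, and 45.8% in NF-control replicate 1. The next values were 58.0% in OF-training replicate 2, 64.6% in NF-training replicate 2 and 65.4% in OF-control replicate 4. The other 7 females lay close together, from 70.1% in OF-training replicate 1 to 74.5% in NF-control replicate 2. The order therefore spread over 45.2 percentage points, of which the 10 females above the lowest pair covered 16.5 points. In the 12 males the share lay between 0.00692% and 0.159%, so no male overlapped with any female. When the share was computed from TPM, which corrects for transcript length, it ran from 12.7% to 42.3% in the females.

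**Figure D1:**
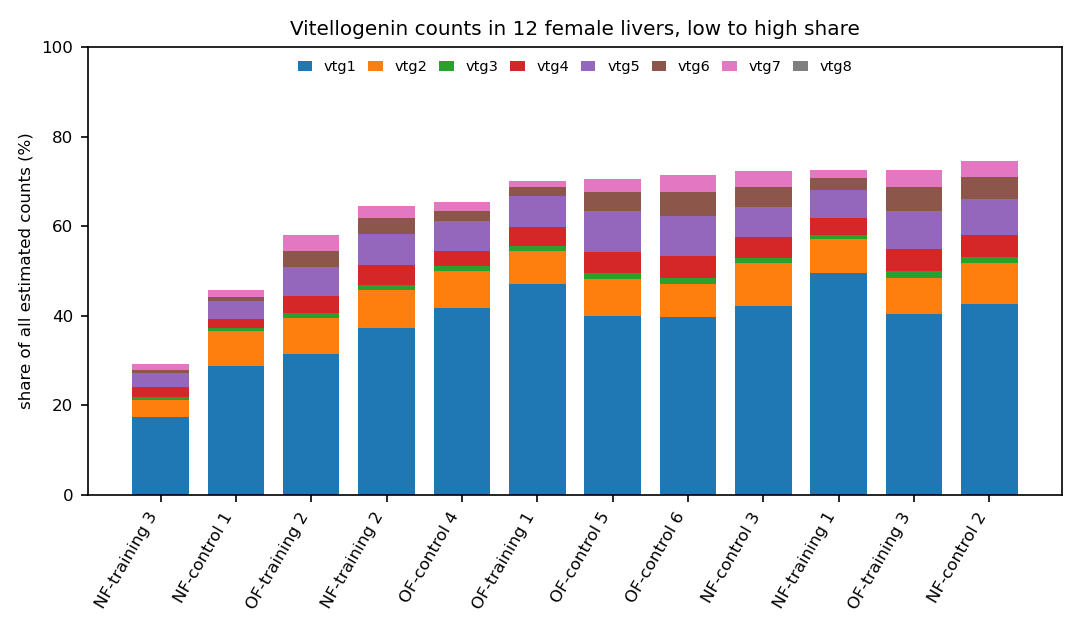
Stacked bars show the share of all estimated counts of each female liver (y axis, percent) that fell on each of the 8 vitellogenin genes, with the 12 females ordered from low to high share on the x axis. NF-training replicate 3 reached 29.3% and NF-control replicate 1 reached 45.8%, while the other 10 females lay between 58.0% and 74.5%, and vtg1 was the tallest segment in every bar.

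All 8 genes had counts in every female. On the length-corrected TPM scale, vtg1 made up between 50.3% and 65.0% of the vitellogenin pool, with a median of 54.1%. The next largest parts were vtg4 with a median of 13.2%, vtg5 with 10.4% and vtg2 with 9.71%. The smallest was vtg8, which never exceeded 0.0269% of the pool. The composition also differed between fish. The part of vtg6 ranged from 2.19% in NF-control replicate 1 to 7.25% at most, and the part of vtg4 was largest, 18.1%, in NF-training replicate 3. These vitellogenin values chose the order of the fish and are given as a description.

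Neither training nor feeding was shown to shift the share. It averaged 61.2 ± 16.6% in trained females and 66.7 ± 10.7% in untrained females (SD, n = 6 each), a difference of -5.49 points (exact two-sided permutation test within feeding, p = 0.505). Without NF-training replicate 3 this difference turned to 0.895 points. Overfed females averaged 68.0 ± 5.51% and normally fed females 59.9 ± 18.4% (SD, n = 6 each), a difference of 8.15 points (exact two-sided permutation test within training, p = 0.405), and 2.03 points without NF-training replicate 3. The test has 400 arrangements and can reach a p of 0.005. By group, the mean was 66.9 ± 7.84% in OF-training, 55.5 ± 23.1% in NF-training, 69.1 ± 3.28% in OF-control and 64.3 ± 16.0% in NF-control females (SD, n = 3 each), and the ranges of the groups overlapped.

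A library in which vitellogenin takes more of the counts has fewer left for everything else. The total per female was even, between 19315642 and 20777125 estimated counts. The counts outside vitellogenin amounted to 14693430 in NF-training replicate 3 and 4950351 in NF-control replicate 2, and followed the share by construction. All levels below are counts per 1000000 (CPM) of the counts outside vitellogenin after TMM scaling, so that they describe the rest of the transcriptome. CPM is not corrected for gene length, and each gene is compared only with itself across fish. Fewer cells of a type and less RNA per cell cannot be told apart in a whole liver.

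The labelled tissue was checked against its markers. The hepatocyte fatty acid binding protein fabp10a lay between 3198 and 18476 CPM, and the summed level of 13 hepatocyte markers between 45085 and 149073 CPM with a median of 116620. The members were uneven, since transferrin, tfa, alone had 10436 to 59684 CPM, and CPS1 had at most 3 counts in any female. The oocyte genes GDF9 and DDX4 reached 1 count at most in any female, while zp3b reached 25 counts, zp2.1 24 and buc 15. The 29 oocyte and ovary markers summed to 48.4 CPM in OF-training replicate 3. In the other 11 females they summed to between 4.64 and 17.2 CPM. Exocrine pancreas markers, whose tissue lies close to the liver in zebrafish, summed to between 534 and 1387 CPM. The library of NF-training replicate 3 stood apart in a further list. Its 32 leukocyte and macrophage markers summed to 1201 CPM, against 164 to 281 CPM in the other 11 females. Since this fish also had the lowest vitellogenin share, slopes fitted without it or without the lowest pair of fish are given beside those results below that they change most.

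Each of 13274 genes was fitted with edgeR's quasi-likelihood test for a slope on the share, with the 4 groups as a covariate, which left 7 residual degrees of freedom. A slope is the change in log2 level per 10 percentage points of vitellogenin share. At an adjusted p under 0.05, 9 genes rose with the share (0.0678% of all genes tested) and 131 fell (0.987%). Of these 140 genes, 90 had a mean under 10 CPM. A gene that passed the filter on low counts only through the fish of lowest share had a negative slope by construction. The excess of falling over rising genes is therefore partly built in. Before adjustment 874 genes with a positive and 1365 with a negative slope had a p under 0.05. Every one of the 140 genes had the same sign of slope within at least 3 of the 4 groups, and 99 within all 4. Over all 13274 genes tested, 8635 had the same sign within at least 3 groups. The fitted slope pools the slopes within groups of the same fish, so such agreement is partly built in. These calls rested on the fish with little vitellogenin. Of the 131 genes that fell, 127 had their highest level in NF-training replicate 3 and the other 4 in NF-control replicate 1, and 104 had their top pair of values in these 2 fish. All 9 genes that rose had their lowest level in NF-training replicate 3.

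Leaving out NF-training replicate 3 left 1 gene that rose and 10 that fell, of which 4 were among the 140. Without both fish of lowest share, a setting chosen after seeing the data, edgeR called 0 of 13345 genes, with 524 at an unadjusted p under 0.05. Of the 117 called genes that could still be tested among these 10 females, 114 kept their sign and 31 had an unadjusted p under 0.05. The rest of the 140 no longer passed the filter on low counts. Leaving out other single fish also moved the counts by more than 1.5 times. Without NF-training replicate 1, 3 genes rose and 17 fell, and without NF-training replicate 2, 3 rose and 31 fell. Without OF-training replicate 1 the counts were 21 and 200, without NF-control replicate 3 they were 1 and 55, without NF-control replicate 2 they were 2 and 69, and without OF-training replicate 2 they were 4 and 74. Only the count of rising genes moved that far without NF-control replicate 1, to 3, and without OF-control replicate 5, to 4.

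The genes that rose included a well known product of the egg-laying liver. The level of nots, nothepsin, an aspartic protease described as a female-specific liver product in fish, was 1277 CPM in NF-training replicate 3 and 1676 CPM in NF-control replicate 1. In the other 10 females it lay between 3310 CPM in OF-control replicate 4 and 7234 CPM in NF-training replicate 2. The slope was 0.51 (SE 0.09, edgeR adjusted p = 0.0296), or 1.42-fold per 10 points. Thus nots was low in the pair of fish with little vitellogenin and had no clear order among the rest, where its slope was 0.08 (SE 0.20, unadjusted p = 0.717).

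ESR1, the estrogen receptor through which estradiol acts on vitellogenin genes in fish liver, did not pass the test across all genes, with a slope of 0.43 (SE 0.11, edgeR adjusted p = 0.103). Its levels in the order of the share were 165 CPM in NF-training replicate 3, 277 CPM in NF-control replicate 1, 485 CPM in OF-training replicate 2 and 727 CPM in NF-training replicate 2. At the upper end NF-training replicate 1 had 350 CPM with a share of 72.6%, whereas OF-control replicate 5 had 1001 CPM with a share of 70.5%. Fish of nearly equal share thus differed in ESR1 by more than the fish at 45.8% and at 58.0% did. The genes with the symbol ESR2, whose products are the beta type estrogen receptors, did not pass either. Their slopes were 0.25 (SE 0.15, ENSDARG00000034181) and 0.05 (SE 0.14, ENSDARG00000016454). The slope of ENSDARG00000034181 was -0.18 without the lowest pair of fish. Of 21 tested genes of estrogen signalling 17 had a positive slope and 1, nots, rose, and the list's median slope was 0.15, but -0.03 without this pair.

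SFXN5, a sideroflexin of the inner mitochondrial membrane, had the steepest rise of any gene called, with a slope of 1.17 (SE 0.21, edgeR adjusted p = 0.0336). It was nearly absent in NF-training replicate 3, at 0.200 CPM, and low in NF-control replicate 1, at 2.58 CPM. In the other females it lay between 6.45 CPM in OF-control replicate 4 and 38.1 CPM in OF-control replicate 5, with no overlap with the lowest pair, and its slope among these 10 was 0.56 (SE 0.47, unadjusted p = 0.258). The smallest adjusted p of a rising gene belonged to ENSDARG00000093425, an ID without a symbol that was named after its values were seen (slope 0.74, SE 0.08, edgeR adjusted p = 0.00368). Its level was 367 CPM in NF-training replicate 3 and 673 CPM in NF-control replicate 1, against 1887 to 3527 CPM in the others, among which the slope was 0.48 (unadjusted p = 0.0360).

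The other called genes with positive slopes were less abundant. PPARA, a nuclear receptor that senses fatty acids, rose by a slope of 0.38 (SE 0.07) and was the only member called of 32 tested genes of fatty acid oxidation. NSUN2, which methylates cytosines in RNA, rose with a slope of 0.46 (SE 0.09), and IPO13, a nuclear import receptor, with 0.43 (SE 0.09). FHIP2A, a partner of the Hook adaptors of dynein, had 0.32 (SE 0.06), and cmss1, named for a ribosomal small subunit factor, had 0.40 (SE 0.08). ENSDARG00000100043, without a symbol and named after its values were seen, completed the 9 with 0.45 (SE 0.08). Among the 10 females above the lowest pair, the slopes of PPARA, NSUN2, IPO13 and FHIP2A stayed at 0.36 to 0.71, with unadjusted p-values of 0.0320, 0.0317, 0.137 and 0.117. Those of cmss1 and ENSDARG00000100043 were smaller there, at 0.26 and 0.19, with unadjusted p-values of 0.340 and 0.397.

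**Figure D2:**
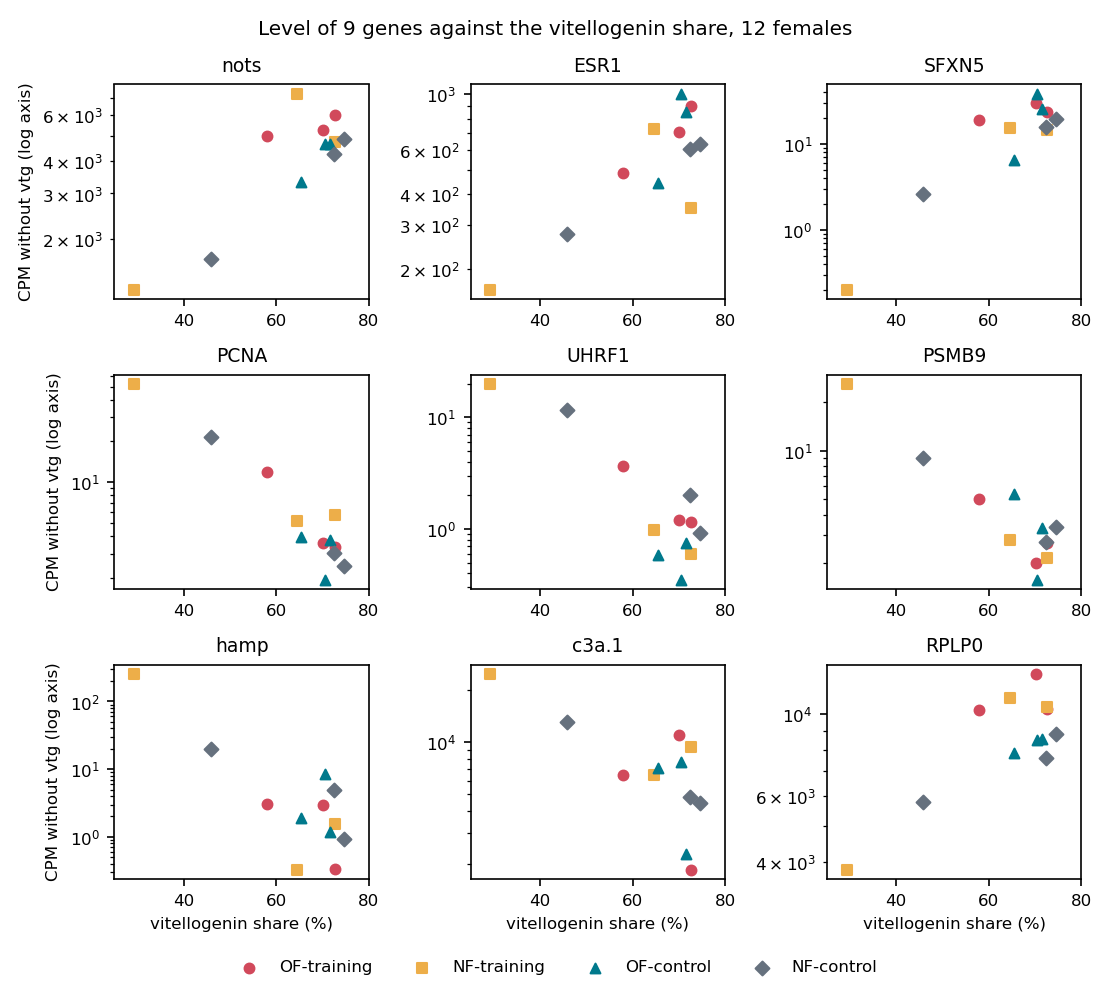
Each panel plots the level of a gene (y axis, CPM of the counts outside vitellogenin, log axis) against the vitellogenin share (x axis, percent) in 12 females, with 1 point per fish and colour and shape for the group. The points of nots, ESR1, SFXN5 and RPLP0 are lowest in NF-training replicate 3 at 29.3%, and those of PCNA, UHRF1, PSMB9, hamp and c3a.1 are highest there.

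Vitellogenin is made on ER-bound ribosomes, and the lists of translation and secretion genes leaned upward as groups, although none of their members passed the test across all genes. Of 85 cytosolic ribosomal protein genes tested, 84 had a positive slope and 74 an unadjusted p under 0.05, with a median slope of 0.20, against a median of -0.0035 and 6529 positive slopes over all 13274 genes. RPLP0, a protein of the ribosomal stalk, had 3801 CPM in NF-training replicate 3, 5803 CPM in NF-control replicate 1 and between 7624 and 12808 CPM in the others (slope 0.29, SE 0.06, edgeR adjusted p = 0.0671). Summed over the 86 listed genes, ribosomal proteins took 82949 CPM in NF-training replicate 3, 104109 CPM in NF-control replicate 1 and 127654 to 200174 CPM in the other females. Without these 2 fish the median slope was -0.09 and 12 of 85 genes were positive. Within at least 3 of the 4 groups, 38 of the 85 had the sign of their fitted slope, a smaller part than the 8635 of 13274 over all genes. The 85 genes were read in the same 12 fish and are not independent of each other. With library size as the only scaling, 17 of the 85 rose by the test.

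Ribosome biogenesis also leaned upward, with less dependence on the lowest pair, and all 61 genes had the sign of their fitted slope within at least 3 groups. Of 61 nucleolar processing genes 60 had a positive slope, with a median of 0.26 that was 0.15 without the pair. The example mybbp1a, a nucleolar Myb-binding protein, had 39.2 and 49.4 CPM in the 2 fish of lowest share and 67.9 to 138 CPM in the others (slope 0.30, SE 0.09, edgeR adjusted p = 0.141). The cytosolic tRNA synthetases, which charge tRNAs with amino acids, had 21 of 22 positive slopes and a median of 0.20, and 0.25 without the pair.

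In the secretory pathway, 29 of 33 genes of signal recognition, translocon and signal peptidase had positive slopes, with a median of 0.15. SEC61A1 (ENSDARG00000021669), the pore of the translocon, had 1325 and 1347 CPM in the lowest pair and 1517 to 2909 CPM in the others (slope 0.21, SE 0.06, edgeR adjusted p = 0.150). SSR2, a translocon-associated protein, had 317 and 408 CPM, against 486 to 1014 CPM (slope 0.32, SE 0.08, edgeR adjusted p = 0.0809). Their slopes were 0.11 and 0.10 without the lowest pair. For the vesicle coats and cargo receptors between ER and Golgi 54 of 62 slopes were positive with a median of 0.13, for N-glycosylation 32 of 38 with 0.08, for ER folding 25 of 36 with 0.07 and for ER-associated degradation 19 of 22 with 0.11. The medians of these 5 lists were larger without the lowest pair, at 0.19, 0.31, 0.24, 0.30 and 0.37. Positive slopes then numbered 28 of 33, 56 of 62, 27 of 38, 29 of 35 and 20 of 22. The share spanned only 16.5 points in that fit and 0 genes were called, so the larger medians do not show a stronger link.

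Single members varied widely between fish of like share. LMAN1, a cargo receptor that carries glycoproteins out of the ER, lay at 138 CPM in NF-training replicate 3 but also at 272 CPM in OF-control replicate 4 and 945 CPM in OF-training replicate 3 (slope 0.41, SE 0.15, edgeR adjusted p = 0.191). XBP1, the transcription factor that expands the ER in secretory cells, had 708 and 984 CPM in the lowest pair, 924 CPM in NF-training replicate 1 and 3832 CPM in OF-training replicate 3 (slope 0.42, SE 0.15, edgeR adjusted p = 0.200). ARFGAP3, which acts in COPI vesicle budding, was at 9.53 and 1.94 CPM in the lowest pair and at 27.3 to 80.6 CPM in the others, without overlap (slope 0.74, SE 0.18, edgeR adjusted p = 0.0853). Without the lowest pair the slopes of LMAN1 and ARFGAP3 were 0.15 and 0.22, and that of XBP1 was 0.43. Lipid supply was mixed. SCAP, the escort of the sterol-sensing transcription factors, had a slope of 0.47 (SE 0.10, edgeR adjusted p = 0.0620) and acsl1b, an enzyme that activates fatty acids, one of 0.67 (SE 0.21, edgeR adjusted p = 0.152). The list of fatty acid synthesis and desaturation had 12 of 27 positive slopes and 0 calls, and that of cholesterol synthesis 17 of 25 and 0 calls.

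**Figure D3:**
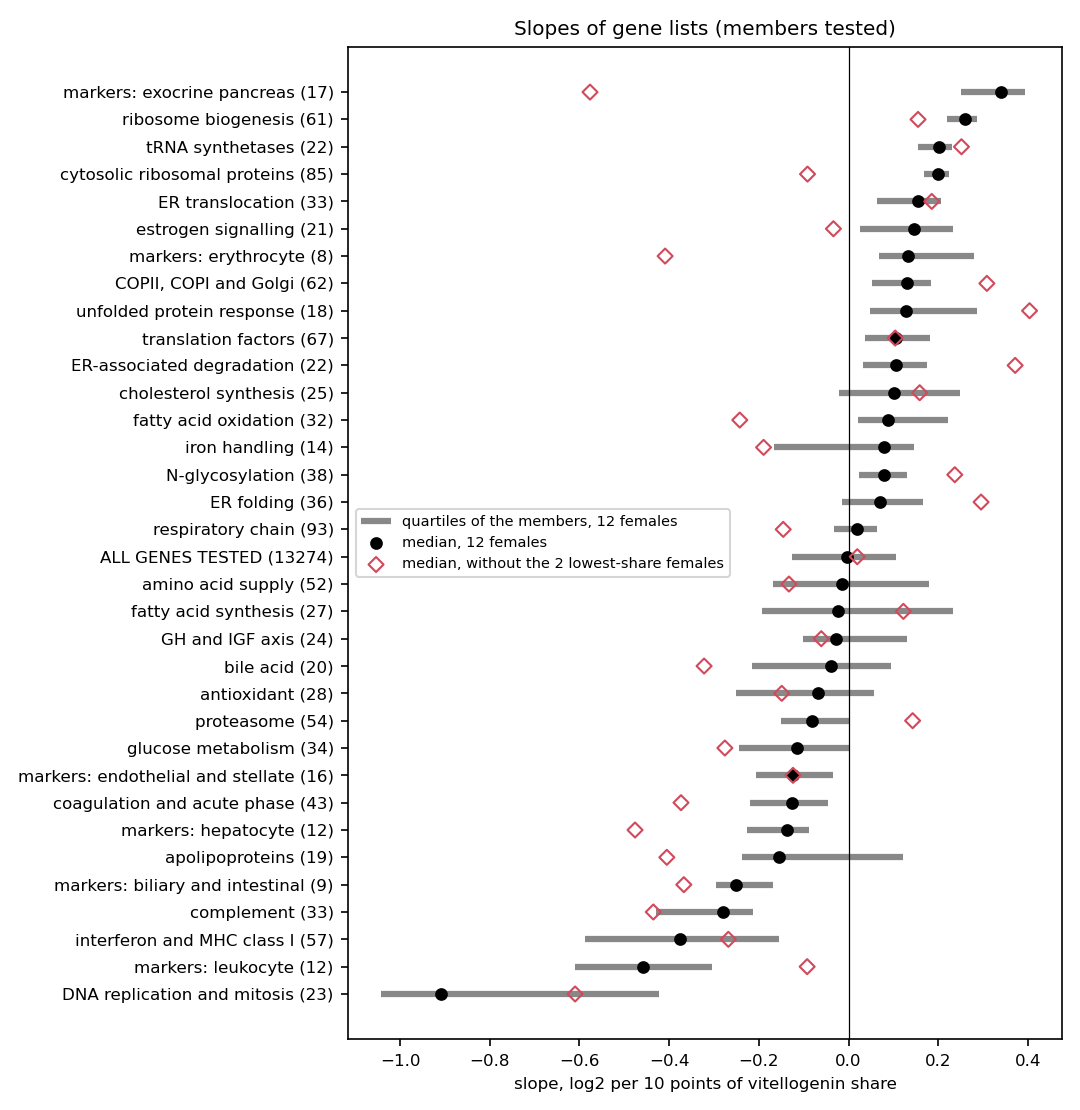
Each row is a list of genes with the number tested in brackets. Black points are the median slope on the vitellogenin share (x axis, log2 per 10 percentage points) over 12 females, grey bars the span from the lower to the upper quartile of the members and open red diamonds the median without the 2 fish of lowest share. DNA replication and mitosis lies furthest to the left at -0.91, all genes tested lie at -0.0035, and the median of cytosolic ribosomal proteins crosses zero, 0.20 with all females and -0.09 without the pair.

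The gene list with the most negative median slope was that of DNA replication and mitosis. A hepatocyte of a resting adult liver seldom divides, and the genes of the replication fork are transcribed mainly in dividing cells. Of the 41 listed genes 23 were tested. Of these 14 fell, 0 rose and all 23 had a negative slope, with a median of -0.91. The background for this list and those below is that of all 13274 genes tested, of which 0.987% fell and 6745 had a negative slope. Outside the 3 females of lowest share, TYMS, MCM3, MCM6 and RRM2 had at most 0.491, 0.981, 1.14 and 1.33 CPM. Such members passed the filter on low counts through these 3 fish alone, so their negative sign followed from the filter. The counts of 14 and 23 include them. UHRF1, which maintains DNA methylation at the fork and is not a member of the list, had the smallest p of all genes. It had 19.7 CPM in NF-training replicate 3, 11.6 CPM in NF-control replicate 1 and 3.64 CPM in OF-training replicate 2, the 3 females of lowest share, and between 0.351 and 2.02 CPM in the other 9. Its slope was -1.14 (SE 0.09, edgeR adjusted p = 0.000845), so that its level fell by more than a factor of 2 per 10 points.

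PCNA, the sliding clamp of the DNA polymerases, followed the same order. It had 52.0, 21.5 and 11.9 CPM in the 3 females of lowest share and between 1.93 and 5.70 CPM in the rest (slope -0.91, SE 0.09, edgeR adjusted p = 0.0032). RRM1, the large subunit of ribonucleotide reductase, had 24.4, 11.7 and 5.80 CPM in these 3 fish and 1.11 to 2.34 CPM in the others (slope -0.98, SE 0.08, edgeR adjusted p = 0.000845). For MCM5, a subunit of the replicative helicase, the levels were 17.5, 11.4 and 6.61 CPM, against 0.393 to 2.36 CPM (slope -1.01, SE 0.10). In each of these genes the 3 fish were ranked by their share and did not overlap with the other 9. The genes were named for their small p, so this order is partly built in. LIG1, MCM2, MCM3, MCM4, MCM6, TYMS and FEN1 ranked the 3 fish alike. MCM7, RRM2 and TOP2A did not, with 12.4, 4.18 and 4.18 CPM in OF-training replicate 2, against 9.77, 2.21 and 3.78 CPM in NF-control replicate 1.

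The DNA ligase LIG1 fell with a slope of -0.98 (SE 0.11). Outside the list, the chromatin assembly factor chaf1a fell with -1.17 (SE 0.13) and the chromatin ATPase ATAD2 with -1.14 (SE 0.14). Outside the 3 females of lowest share, ATAD2 stayed below 1.14 CPM, the most that MCM6 reached there. Like MCM6, ATAD2 passed the filter on low counts through the 3 females of lowest share alone. Its negative sign therefore followed from the filter, and it was not tested without the lowest pair. The proliferation marker mki67, named after its values were seen, had 21.9 CPM in NF-training replicate 3, 4.70 CPM in NF-control replicate 1 and 7.01 CPM in OF-training replicate 2, and at most 2.29 CPM in any other female (slope -1.09, SE 0.16, edgeR adjusted p = 0.0168). Without the lowest pair the slopes of chaf1a and mki67 were steeper, at -1.92 and -2.03. Both genes had their highest level of the remaining fish in OF-training replicate 2. The remaining calls of the list were MCM2, MCM3, MCM4, MCM6, MCM7, RRM2, TYMS, FEN1 and TOP2A, with slopes from -1.53 to -0.64. Not every gene linked to division passed the test. CCND1, a cyclin of early G1, had a slope of -0.04 (SE 0.11), and DUT, which removes dUTP, one of -0.22 (SE 0.07), and neither passed. DUT was still highest in NF-training replicate 3, at 53.3 CPM, against 14.8 to 26.4 CPM in the others.

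The replication genes kept their direction without the lowest pair. Among the other 10 females, 17 of 18 members still tested had negative slopes with a median of -0.61. The rest of the 23 no longer passed the filter on low counts. OF-training replicate 2, the fish of lowest share among these 10, had their highest level of UHRF1, PCNA and RRM1. A fit without this fish as well was not run. UHRF1 kept a slope of -1.08 (SE 0.42, unadjusted p = 0.0304), PCNA one of -0.98 (SE 0.32, unadjusted p = 0.0137) and RRM1 one of -0.99 (SE 0.33, unadjusted p = 0.0146), none of which passed the adjustment. These genes are at low levels. Summed over the 41 listed genes, they took 492 CPM in NF-training replicate 3, 247 CPM in NF-control replicate 1, 230 CPM in OF-training replicate 2, 156 CPM in NF-training replicate 2 and 87.9 to 123 CPM in the other females.

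A further group of genes that fell belongs to antigen processing and the interferon response. The immunoproteasome is a form of the proteasome that interferon induces to cut peptides for MHC class I. PSMB9, one of its catalytic subunits, had 25.9 CPM in NF-training replicate 3, 9.04 CPM in NF-control replicate 1 and 1.58 to 5.42 CPM in the others (slope -0.78, SE 0.10, edgeR adjusted p = 0.0116). PSMB8, a further catalytic subunit, had 56.2 and 11.8 CPM in this pair and 4.21 to 10.3 CPM in the others (slope -0.62, SE 0.08, edgeR adjusted p = 0.0116). Of 54 proteasome genes tested 6 fell, namely PSMB8, PSMB9, psmb12, psmb13a, PSME1 and PSME2, which are immunoproteasome subunits and activator subunits. The list's median slope was -0.08, and it was 0.14 without the lowest pair.

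The list of interferon and MHC class I genes was made after the data were seen, so its counts are a description. Of its 57 tested genes 15 fell, 0 rose and 50 had a negative slope, whereas 0.987% of all genes tested fell. The median was -0.37, and -0.27 without the lowest pair, where 39 of 55 were negative. The genes that fell included ifi44a8, an interferon-induced gene, with 28.5 CPM in NF-training replicate 3 and at most 2.56 CPM in any other female (slope -1.34, SE 0.16, edgeR adjusted p = 0.0071). The peptide transporter tap2a, named after its values were seen, had 38.7 and 6.55 CPM in the lowest pair and 1.31 to 3.78 CPM in the others (slope -0.90, SE 0.13, edgeR adjusted p = 0.0136), and its slope was -0.27 without this pair. The more abundant b2ml, a light chain of MHC class I, did not pass (slope -0.22, SE 0.07, edgeR adjusted p = 0.141). Its levels were 707 and 508 CPM in the lowest pair and 284 to 472 CPM in the others. Summed over 91 listed genes the level was 3642 CPM in NF-training replicate 3, 1893 CPM in NF-control replicate 1 and 1174 to 1760 CPM in the other females.

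Leukocyte markers also had negative slopes, but their summed level stood out in NF-training replicate 3 alone. All 12 tested leukocyte and macrophage markers had a negative slope, with a median of -0.46, and 2 of them fell, marco and the pan-leukocyte phosphatase ptprc. Without the lowest pair the median was -0.09 and 8 of the 12 slopes were negative. Erythrocyte markers did not share this direction, with 7 of 8 positive slopes, a median of 0.13 that was -0.41 without the pair, and 0 calls. The macrophage scavenger receptor marco had 37.7 and 6.64 CPM in the lowest pair and at most 3.82 CPM in the others (slope -0.83, SE 0.14, edgeR adjusted p = 0.0261), and a slope of -0.08 (unadjusted p = 0.857) without the pair. MFAP4 (ENSDARG00000090557), a gene used as a macrophage marker in zebrafish, reached 585 CPM in NF-training replicate 3 and 4.34 to 44.6 CPM in the other 11 fish (slope -1.02, SE 0.35, edgeR adjusted p = 0.183), and without the lowest pair its slope was 1.05. It shares its symbol with other IDs, between which reads may be divided. MPEG1, a macrophage gene of the list, had 0 counts in all females. The invariant chain gene cd74b, which serves MHC class II, had 110 CPM in NF-training replicate 3 and 20.3 to 44.1 CPM elsewhere (slope -0.35, SE 0.09, edgeR adjusted p = 0.0935). The part of leukocyte RNA in the fall of the replication and interferon genes was not tested. In the 3 females of lowest share, in that order, replication genes summed to 492, 247 and 230 CPM. Their leukocyte markers summed to 1201, 280 and 260 CPM. NF-training replicate 1 had the highest leukocyte sum of the remaining females, 281 CPM, with 116 CPM for replication genes.

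**Figure D4:**
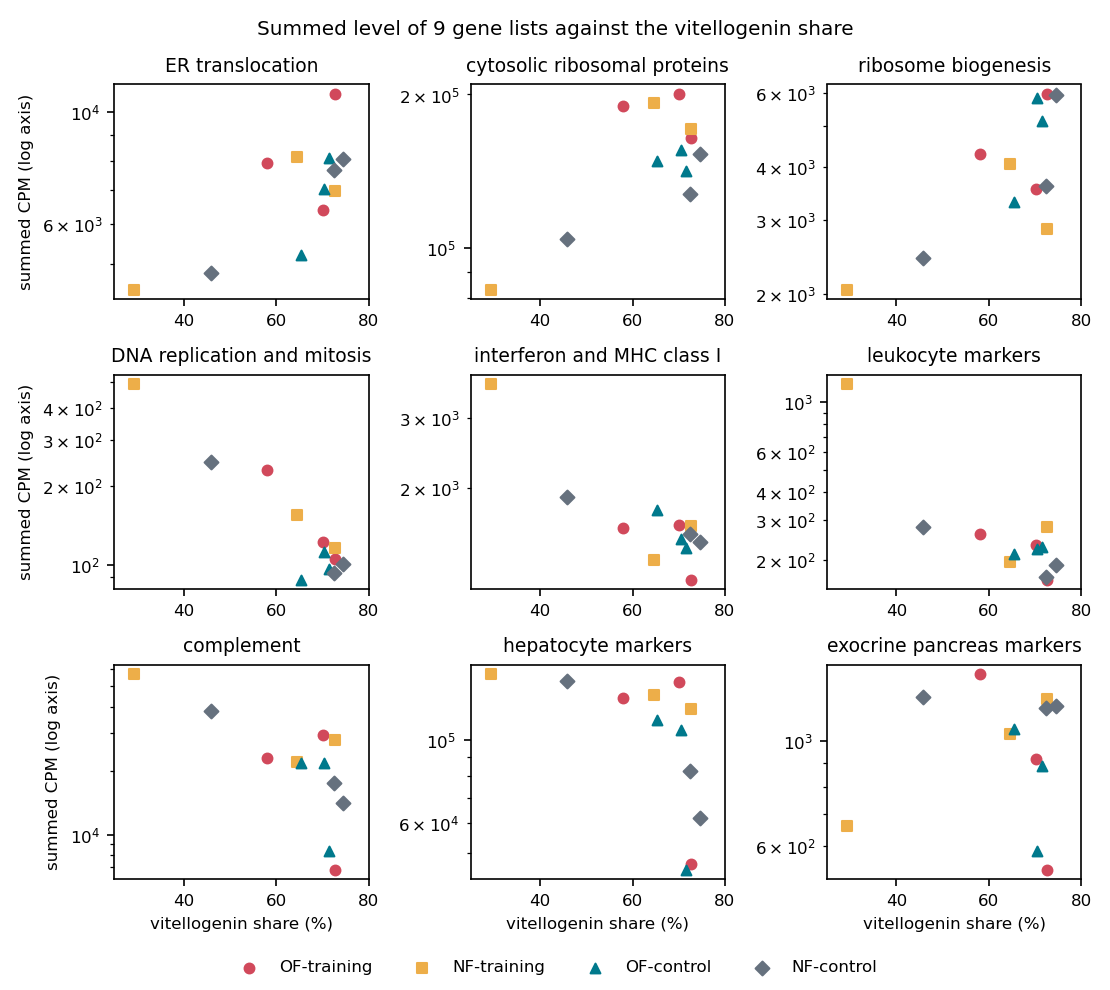
Each panel plots the summed level of a gene list (y axis, CPM of the counts outside vitellogenin, log axis) against the vitellogenin share (x axis, percent) in 12 females, coloured by group. DNA replication and mitosis sums to 492, 247 and 230 CPM in the 3 females of lowest share, while leukocyte markers stand out in NF-training replicate 3 alone, with 1201 CPM, against 164 to 281 CPM in the other 11.

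The acute phase hormone hamp, hepcidin, which blocks iron export and is induced by inflammation, had 252 CPM in NF-training replicate 3, 19.5 CPM in NF-control replicate 1 and between 0.327 and 8.42 CPM in the others (slope -1.60, SE 0.32, edgeR adjusted p = 0.0410). Without the lowest pair its slope was -0.33 (SE 0.98), so the fall rested on these fish. It was the only member called of 43 tested genes of coagulation and acute phase, of which 36 had a negative slope (median -0.13, and -0.37 without the lowest pair).

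Complement, the set of plasma proteins that marks microbes for destruction, is made mainly by hepatocytes. All 33 tested complement genes had a negative slope, 21 of them with an unadjusted p under 0.05, and 0 passed the adjustment by edgeR. Over all 13274 genes tested, 1365 had a negative slope with such a p. The median slope was -0.28, and -0.44 without the lowest pair, where 32 of 33 remained negative. Of the central component, c3a.1 had 24494 CPM in NF-training replicate 3 and 13076 CPM in NF-control replicate 1, and between 1843 CPM in OF-training replicate 3 and 11019 CPM in OF-training replicate 1 among the rest (slope -0.43, SE 0.16, edgeR adjusted p = 0.208). Its paralog c3a.2 had a slope of -0.41 (SE 0.18, edgeR adjusted p = 0.285).

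Among other exported plasma proteins, hpxb, a hemopexin that binds free heme, fell (slope -0.86, SE 0.18, edgeR adjusted p = 0.0485). It was named after its values were seen, and it had 2234 and 259 CPM in the lowest pair and 37.4 to 264 CPM in the others. Its level thus stood out in NF-training replicate 3 alone, and its slope without the lowest pair is not given here. The proteins that follow did not pass. Ceruloplasmin, CP, which carries copper, had 18552 and 10090 CPM in the lowest pair and 3705 to 8813 CPM in the others (slope -0.29, SE 0.07, edgeR adjusted p = 0.0853). Of the 12 hepatocyte markers tested 11 had a negative slope (median -0.14, and -0.48 without the lowest pair). Transferrin, tfa, differed most at the upper end of the order. It had 59684 CPM in NF-training replicate 3, 54809 CPM in NF-training replicate 1 at a share of 72.6%, and 10436 CPM in OF-control replicate 6 at 71.5%, so that fish of like share differed widely (slope -0.22, SE 0.16, edgeR adjusted p = 0.535). The sex hormone-binding globulin shbg had 684 and 833 CPM in the lowest pair and 183 to 550 CPM in the others, without overlap (slope -0.31, SE 0.10, edgeR adjusted p = 0.158). The slopes of CP, tfa and shbg were -0.65, -0.52 and -0.76 without the lowest pair.

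Of 19 apolipoprotein genes tested 1 fell, and the median slope was -0.15, or -0.41 without the lowest pair. The level of apoeb, an apolipoprotein E, was 1264 CPM in NF-training replicate 3, 262 CPM in NF-control replicate 1 and 61.0 to 352 CPM in the others, the highest of these in OF-training replicate 2 (slope -0.78, SE 0.13, edgeR adjusted p = 0.0261). Neither apoc1 (slope -0.41, SE 0.14, edgeR adjusted p = 0.170) nor apoa1b, the main protein of high-density lipoprotein (slope -0.15, SE 0.16, edgeR adjusted p = 0.671), passed. SOX9, a transcription factor of bile duct cells, fell with a slope of -0.29 (SE 0.06), from a list of 9 tested biliary and intestinal markers of which 7 had a negative slope. The epithelial keratin krt8 of that list had 1343 CPM in NF-training replicate 3 and 355 to 699 CPM elsewhere (slope -0.23, SE 0.08, edgeR adjusted p = 0.164). ABCB11, the bile salt export pump of hepatocytes, had 1342 CPM in NF-training replicate 3 and 119 to 290 CPM in all others (slope -0.50, SE 0.11, edgeR adjusted p = 0.0671), and a slope of -0.29 without the lowest pair.

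Energy metabolism gave few calls, as did all genes tested, of which 0.0678% rose and 0.987% fell. The direction of its lists depended on the lowest pair in part. Of 93 tested nuclear subunits of the respiratory chain 55 had a positive slope (median 0.02), against 18 without the lowest pair (median -0.15), and 1 fell, cox4i1l, a subunit form of cytochrome c oxidase (slope -0.42, SE 0.08, edgeR adjusted p = 0.0331). Fatty acid oxidation had 26 of 32 positive slopes (median 0.09), which was -0.24 with 9 of 32 positive without the lowest pair. Glycolysis, gluconeogenesis and glycogen had 25 of 34 negative slopes (median -0.12), 28 of 34 without the pair (median -0.28), and 0 of them passed. Exocrine pancreas markers had 16 of 17 positive slopes (median 0.34), and -0.58 without the lowest pair, and 0 of them passed.

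**Figure D5:**
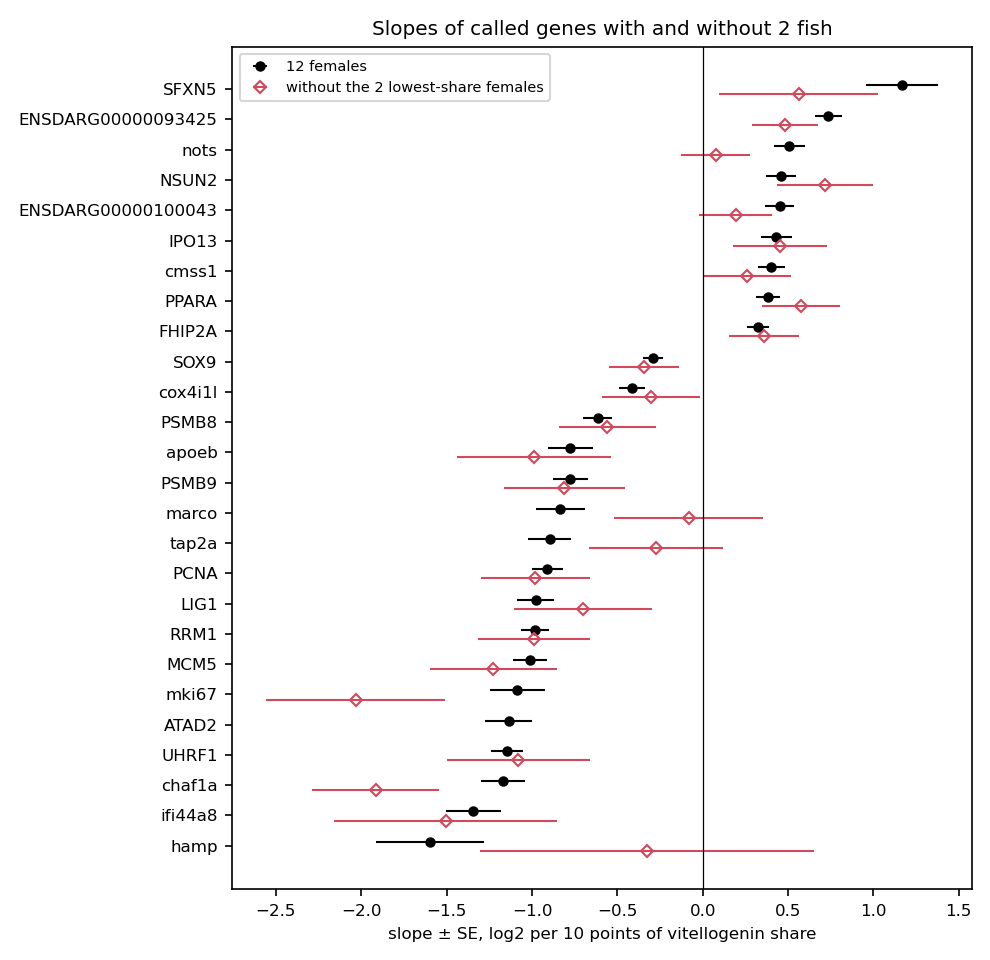
Points are the slopes (x axis, log2 per 10 percentage points of vitellogenin share, ± SE) of 26 genes that passed the test, black for all 12 females and red diamonds without the 2 fish of lowest share. PCNA, RRM1 and PSMB9 keep slopes of like size in both fits with wider errors, whereas nots, marco, tap2a and hamp lie closer to zero without these fish, and ATAD2 was not tested in the smaller fit.

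The male livers were set beside the females and do not continue their order, since they differ from them by sex. Female livers were compared with male livers on the counts outside vitellogenin of all 24 fish, with the groups as a covariate, where 21.4% of 17925 genes were higher and 21.8% lower in females. Of the 9 genes that rose with the share, 8 were higher in females. In this scaling nots averaged 4275 CPM in females and 3.68 CPM in males (log2 difference 10.21, SE 0.38), with 1174 CPM in NF-training replicate 3, against 7.42 CPM at most in males. SFXN5 averaged 17.2 CPM in females and 0.0246 CPM in males. NF-training replicate 3 had 0.184 CPM and the highest male 0.109 CPM, both of which rest on very few counts, so their order is not resolved. ESR1 was higher in females by 7.80 on the log2 scale (SE 0.30), and cmss1 was the rising gene not shown to differ by sex (log2 difference 0.05, edgeR adjusted p = 0.889).

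Of the 131 genes that fell with the share, 14 were higher and 23 lower in females than in males. PCNA averaged 9.29 CPM in females and 4.64 CPM in males, and the sexes were not shown to differ (log2 difference 0.77, SE 0.43, edgeR adjusted p = 0.160), although NF-training replicate 3 with 47.8 CPM lay above the highest male with 8.08 CPM. Summed leukocyte markers were between 163 and 1104 CPM in females and between 137 and 603 CPM in males. Of the genes that fell, apoeb was lower in females (log2 difference -2.92, SE 0.41, edgeR adjusted p = 4.06e-06), with a mean of 236 CPM in females and 1590 CPM in males, and NF-training replicate 3 reached 1162 CPM.

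The slopes were not shown to depend on training or feeding. For an interaction of the share with training edgeR called 0 of 13274 genes, with 1003 at an unadjusted p under 0.05, and DESeq2 called 23. For an interaction with feeding edgeR called 0, with 462 at an unadjusted p under 0.05, and DESeq2 called 7. The same females gave few calls for the study's own factors. Between trained and untrained females edgeR called 0 genes (866 at an unadjusted p under 0.05) and DESeq2 called 8, and between overfed and normally fed females edgeR called 0 (908) and DESeq2 called 23. When the vitellogenin share was added as a covariate, edgeR called 0 genes for either factor, with 804 and 497 at an unadjusted p under 0.05.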

How the data were processed

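RNA of the 24 livers was sequenced on a BGISEQ-500. The authors removed low-quality reads with Trim Galore 0.6.4, mapped the rest to GRCz11 and counted them with kallisto (version 0.4.6 in the submitters' processing notes). The authors deposited estimated counts at the gene level without any scaling, and TPM, which corrects for transcript length and adds up to 1000000 in each fish. The step from transcripts to genes is not given in the sources used here. Of 32520 Ensembl IDs 29201 had a symbol. Some symbols cover several IDs, between whose transcripts kallisto divides reads. Estimated counts were rounded. Sequences were not used here.

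The vitellogenin share is the sum of vtg1 to vtg8 over the total count. These 8 genes were then removed. Genes were kept with filterByExpr (minimum count 10, by group) and scaled with TMM over the other genes, so that levels do not include vitellogenin. edgeR 4.0.16 (R 4.3.3) tested the slope on the share with group as covariate, interactions of the share with training and with feeding, and each factor. The standard error is the size of the slope over the square root of edgeR's F. P-values were adjusted by Benjamini-Hochberg over all genes tested, with a threshold of 0.05. They set each effect against the residual spread between these fish, which does not cover a tank that fish of a group may share. The share was compared between groups with an exact permutation test. Totals were even, but the counts outside vitellogenin limit the precision of genes with few counts.

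The members and the gene lists were chosen with earlier results of these data known, and the interferon list after the data were seen. Lists are described by counts and medians. Named genes were the called genes of smallest adjusted p with a symbol (at most 10 a direction, of which 7 rose), the 3 most expressed genes and the gene of smallest p of each list, the estrogen receptors and nots, and 1 gene that the rule selects is not reported here. Others are marked in the text or were members called in a list. Not every other gene of this rule is named. Alternatives covered scaling, filters, DESeq2 1.42.0, limma 3.58.1 (voom, and log2 of TPM with pseudocounts of 1 and 0.1, vitellogenin removed), thinned counts, other scales of the share, no group covariate, a replicate block, and each female left out in turn. The steps were tested on simulated data.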

Additional observations from a re-analysis of the deposited data

How the results depend on the processing

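Against 9 rising and 131 falling genes, the counts of rising genes were 29 with library size as the only scaling, 252 with DESeq2, 30 with limma voom, 28 without a filter on low counts, 16 with a mean of at least 10 counts, 299 without the group covariate, 94 and 84 with log2 of TPM (pseudocounts 1 and 0.1), 1 with the share computed from TPM and 0 with the rank of the share. The counts of falling genes were 442 with DESeq2, 207 with limma voom, 319 without the filter, 980 without the group covariate, 84 with counts thinned to the smallest total outside vitellogenin, 78 with log2 of TPM plus 0.1, 42 with the share from TPM and 1 with its rank. Without the 2 females of lowest share both counts were 0. Leaving out each female in turn gave 1 to 21 rising and 10 to 200 falling genes. The cause of these differences was not tested. In all but 1 of 28 alternative fits, every one of the 140 called genes still tested kept its sign. The exception was the fit without the 2 females of lowest share, with 114 of 117. The genes were chosen in the same fish that these fits reuse, so this agreement is largely built in. Of the 140, 4 were still called without NF-training replicate 3, 20 with the replicate block and 1 with the rank of the share. Of 40 named genes called, which leave out hpxb, RRM1, PCNA and chaf1a kept their call without each single female.

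Whether the replicate numbers pair the fish is not in the labels. Of 9 pairs of same-numbered females of the NF-control, NF-training and OF-training groups, 4 deviated together with a correlation over 0.1 (range -0.139 to 0.346). Females of unlike number were not compared, so these values cannot settle whether the fish are paired. With the replicate block, 3 genes rose and 23 fell, and 0 genes differed in slope by training or by feeding. The OF-control females, numbered 4 to 6, share no number with another female, so they added nothing to these slopes. The paired differences of the share were -8.76 points for training (NF groups) and 11.4 points for feeding (trained groups), with 3 pairs each. A block could not be fitted for the comparisons of training and feeding across genes.

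For slopes that differ by training, DESeq2 called 23 genes and edgeR 20 without the filter. For slopes that differ by feeding the counts were 7 and 1, and edgeR called 0 to 2 with each female left out. For training DESeq2 called 8 genes, and for feeding 23. The fits with each female left out used edgeR, which called 0 to 2 genes for feeding. The share of trained minus untrained females lay between -9.66 and 0.895 points over the fits without 1 female. The slopes of some genes that had not passed the test reversed. That of CCND1 was 0.00283 and 0.00291 with log2 of TPM (pseudocounts 1 and 0.1) and lay between -0.122 and 0.0281 without 1 female, that of apoa1b between -0.527 and 0.0121, and that of ESR2 (ENSDARG00000016454) between -0.0803 and 0.138, with -0.0194 for the rank of the share. Without the lowest pair DUT had 0.0941, ESR2 (ENSDARG00000034181) -0.18 and MFAP4 1.05. Genes under a few CPM rest on few counts in the females of high share, where as few as 4950351 counts were left outside vitellogenin.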
